A study of Mus musculus with 6 samples.

Results

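The 33 genes described here belong to the unfolded protein response and the integrated stress response, and they were taken by name from the 43432 gene IDs of the count table. All 33 had a row, and all 33 passed the filter on low counts. They were followed in bulk RNA sequencing of medullary thymic epithelial cells (mTEC), the stromal cells of the thymus that display self-antigens to developing T cells, from C57BL/6 mice killed 4 weeks after birth. Of the 6 libraries, 3 came from Copa+/+ mice (WT) and 3 from CopaE241K/+ mice (MUT), the latter heterozygous for the E241K amino acid change in Copa, the alpha subunit of the COPI coat. The labels name no other allele and no treatment, and they do not say whether a library came from 1 mouse or several, nor whether the mice were littermates. The p-values therefore reflect the spread of these libraries alone, and that spread may be technical. By its title the series concerns STING activation and type I interferons in the thymus of mice with this allele.

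COPI vesicles return escaped chaperones and other residents of the endoplasmic reticulum (ER) from the Golgi to the ER, where secreted and membrane proteins fold. Unfolded protein in the ER is sensed by ATF6, IRE1 (encoded by Ern1) and PERK (encoded by Eif2ak3). ATF6 is cut in the Golgi to release a transcription factor that raises chaperone genes. IRE1 splices the mRNA of Xbp1 so that it encodes an active factor for chaperone and degradation genes. PERK phosphorylates eIF2-alpha, which lowers general translation but favours translation of Atf4, the factor for amino acid supply, redox and CHOP (Ddit3) genes. Other kinases reach the same step, and the shared branch is the integrated stress response. Gene counts measure none of cleavage, splicing or phosphorylation, only the RNA level of each gene. The genes were divided into an ATF6/XBP1 arm of 17, an IRE1 arm of 6 and a PERK/ATF4 arm of 10, although several chaperone and degradation genes answer to both ATF6 and XBP1.

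The promoters of the members were searched for the elements through which each arm is known to act. The ER stress response element (ERSE) is CCAAT, then 9 bases of any kind, then CCACG, bound by NF-Y and by ATF6 or XBP1. Searched on both strands in the 250 bases before each RefSeq start site (GRCm38.p6), it was found in 9 of the 30 members with a promoter in the table, against 0.113% of all 32851 promoters. Of these 9, 8 were in the ATF6/XBP1 arm, 1 (Dnajc3) was in the IRE1 arm and none was in the PERK/ATF4 arm. ERSE-II, which is ATTGG, any base, then CCACG, was found in Herpud1 alone among members and in 0.0304% of promoters. The letters TGACGTGG of the unfolded protein response element were found in 0 members and in 0.563% of promoters. The ATF4 composite site, TGATGNAA, was found in 4 members (Atf3, Chac1, Asns and Herpud1), against 3.45% of promoters. ERSE, ERSE-II and the unfolded protein response element share the letters CCACG, read as CGTGG on the other strand, so their matches are not independent. A match is a description of the letters, not a measured binding site. The members were chosen by name as genes of these responses, so a higher share than over all promoters is no finding of these data.

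The matches below are shown because they are the letters searched for, in chaperone, ERAD and ATF4 target genes described further on. The ATF4 composite match of Herpud1, a gene of the ATF6/XBP1 arm, is shown with its ERSE-II. Each is written 5′ to 3′ in the direction of the gene, with the match in capitals.
Hspa5 ERSE (chr2:34772020-34772048): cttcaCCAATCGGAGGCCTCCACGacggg
Calr ERSE, on the opposite strand (chr8:84847070-84847098): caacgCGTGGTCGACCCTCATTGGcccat
Canx ERSE (chr11:50325795-50325823): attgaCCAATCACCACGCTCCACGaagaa
Creld2 ERSE, on the opposite strand (chr15:88819515-88819543): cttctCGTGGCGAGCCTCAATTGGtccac
Syvn1 ERSE (chr19:6046527-6046555): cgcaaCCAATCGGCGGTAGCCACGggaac
Dnajc3 ERSE (chr14:118937822-118937850): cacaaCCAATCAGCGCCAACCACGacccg
Herpud1 ERSE-II (chr8:94386368-94386396): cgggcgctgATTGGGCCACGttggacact
Herpud1 ATF4 composite, on the opposite strand (chr8:94386306-94386335): accacggcgggTTGCATCAgcccgcacccc
Atf3 ATF4 composite, on the opposite strand (chr1:191183425-191183454): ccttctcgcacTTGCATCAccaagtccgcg
Chac1 ATF4 composite, on the opposite strand (chr2:119351038-119351067): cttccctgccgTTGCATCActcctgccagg
Asns ATF4 composite (chr6:7693214-7693243): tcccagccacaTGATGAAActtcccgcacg

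In the GENCODE M21 annotation of the same build, the Calr, Canx, Creld2, Syvn1, Dnajc3 and Chac1 stretches lie between genes. The Hspa5 and Asns stretches overlap the 5′ untranslated region of a longer annotated transcript of the same gene, the Atf3 stretch lies in an intron of longer Atf3 transcripts, and both Herpud1 stretches lie in an intron of Gm15890 on the other strand. Hsp90b1 held a pair of ERSE matches, and Pdia6 and Ero1lb held 1 each.

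**Figure D1:**
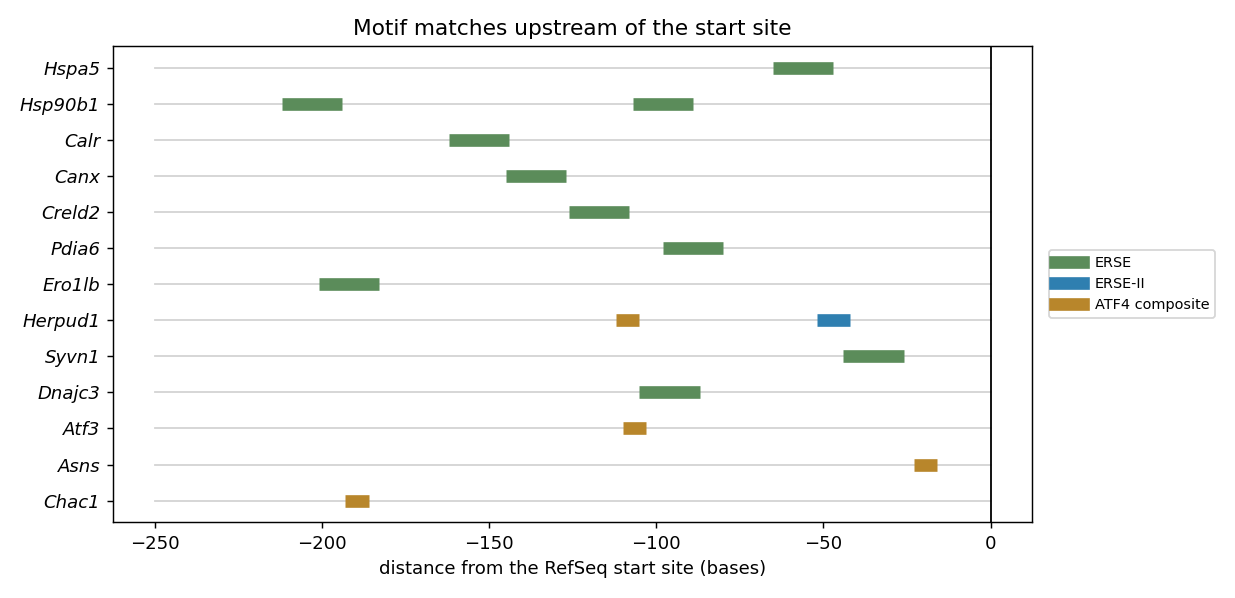
Positions of the motif matches in the 13 members that held any, as distance in bases from the RefSeq start site (0, right); bars are drawn to the length of the match and coloured by motif. Green ERSE bars occur in 9 genes, a blue ERSE-II bar in Herpud1, and the ATF4 composite bars occur in Atf3, Asns, Chac1 and Herpud1.

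The libraries held 19934513 to 23366238 counts, with 17174 to 24774 genes detected, the fewest in WT replicate 1. Copa itself measured 568.5, 277.2 and 353.3 CPM in WT and 377.1, 297.5 and 368.2 CPM in MUT, and this level does not check a single amino acid change. CPM are counts scaled to a common library size with edgeR's TMM factors. Of the mTEC markers, Aire (929 to 1563 CPM) and Fezf2 (442 to 866 CPM) were present in every library. Epcam measured 629, 641 and 751 CPM in WT and 418, 441 and 593 CPM in MUT. MUT thus lay below WT without overlap, as for 3.96% of all genes. Ccl21a of immature mTEC was at or below 0.19 CPM. Krt5 (264 to 1327 CPM), Krt14 (56.2 to 148 CPM) and Pdpn (2.07 to 19.3 CPM) of the same list were counted in every library. The low count of Ccl21a alone does not show that immature mTEC were absent. Summed CPM of 10 thymocyte markers ran from 204 to 497 in WT and from 121 to 741 in MUT, that of 12 B and plasma cell markers from 353 to 1155 and from 442 to 1679, and that of 10 dendritic cell and macrophage markers from 572 to 1171 and from 517 to 1018. Summed CPM of 8 tuft cell markers was 1334, 509 and 368 in WT replicates 1, 2 and 3, and 347, 347 and 246 in MUT. The top of WT was thus replicate 1 alone. Summed CPM of 8 fibroblast and pericyte markers ran from 1762 to 3063 in WT and from 1239 to 1764 in MUT, and of 7 endothelial markers from 15.1 to 84.3 and from 25.4 to 58.2. Rgs5, listed as a pericyte marker, alone gave 1626 to 2955 CPM in WT and 1096 to 1685 CPM in MUT of the fibroblast and pericyte sum. The other 7 markers on that list were at or below 80.7 CPM in every library, among them Pdgfrb at 7.52 to 43.8 CPM. Which cells the Rgs5 RNA came from was not tested. Of the markers on these 7 lists, Ccl21a alone was at 0 in every library of a genotype (WT). Mzb1, Prdm1 and Tnfrsf17 of plasma cells were at 0 in WT replicate 1. So were Clec9a of dendritic cells, Col1a2, Col3a1 and Lum of fibroblasts, and Cldn5 and Tie1 of endothelium. Other libraries also held markers at 0, such as Il25 of tuft cells in MUT replicates 1 and 2. Of the tuft cell markers 0 of 8, and of the dendritic cell and macrophage markers 0 of 10, had a fitted value above 0, against 49.4% of all genes. In bulk RNA, fewer cells that express a gene and less RNA per cell cannot be told apart.

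No member differed between the genotypes in edgeR's quasi-likelihood test with Benjamini-Hochberg adjustment over the 17172 genes tested. The share of all genes called at an adjusted p of 0.05 was 0%, with the lowest adjusted p at 0.999875, and limma-voom also called 0 genes. Members called were 0 as well in DESeq2 (0.424% of all genes called), in edgeR on unfiltered counts (0.253%) and in edgeR with the replicate number as a block (0.00582%). At an unadjusted p under 0.05 there were 0 members, against 3.48% of all genes. The fitted log2 fold change, MUT minus WT, is called the estimate below. A value quoted without 1 library is mostly the run nearest to 0 or past it. Leaving out another library also moved estimates away from 0, as given below for some genes. The estimate was above 0 for 12 members and below 0 for 21, where 49.4% of all genes were above 0. Its median was -0.17 over the members and -0.01 over all genes. Genotypes did not overlap for 1 member, Ppp1r15a, with MUT above WT. Over all genes 9.35% did not overlap, 5.39% with MUT above and 3.96% with MUT below, so 1 of 33 was not above the background.

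The intervals of the members show how large a difference these libraries could have missed. The median standard error (SE) of a log2 fold change was 0.43 over the members and 1.03 over all genes. The 95% interval of edgeR's estimate, taken gene by gene with no adjustment, lay within a 2-fold change in either direction for 7 members, all in the ATF6/XBP1 arm: Hspa5, Hsp90b1, Hyou1, Calr, Pdia3, Pdia4 and Ero1lb. This was the case for 3.7% of all genes tested. For 19 members the interval left out a 2-fold higher level in MUT, and for 13 it left out a 2-fold lower one. Of all 17172 genes tested, 3741 left out the higher level and 3181 the lower one. For every member other than the 7 named, a 2-fold difference in at least 1 direction lay inside the interval.

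**Figure D2:**
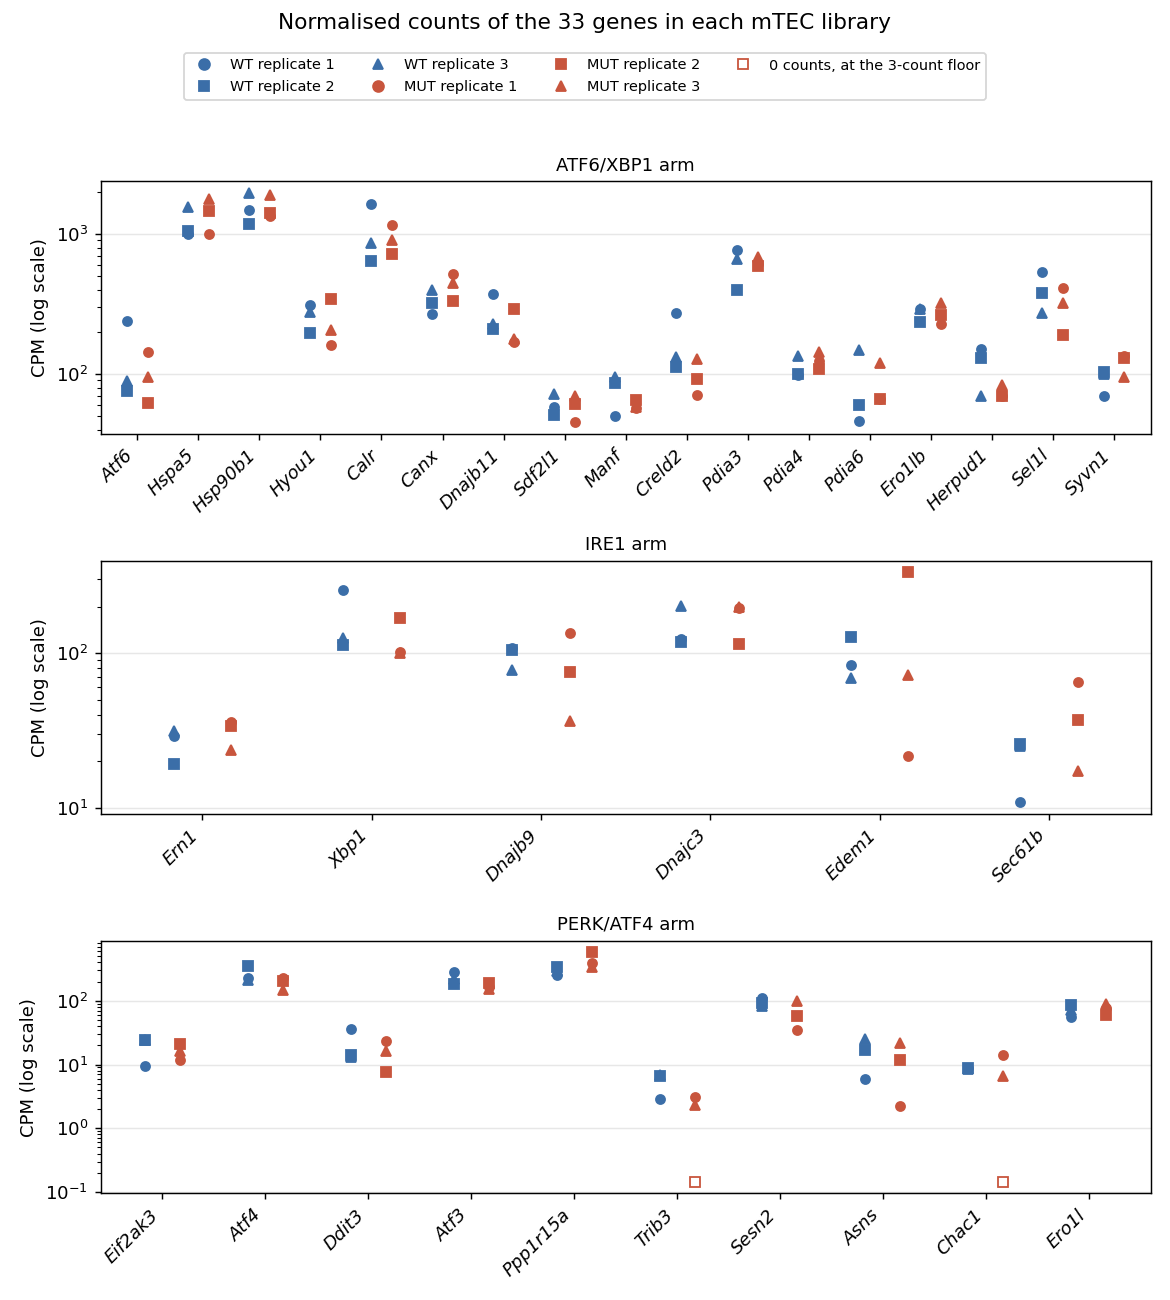
CPM of each member in each library on a log axis, by arm; blue is WT, red is MUT, the marker shape gives the replicate number, and open squares are 0 counts drawn at the floor of 3 counts. The genotypes overlap for 32 of the 33 members, and Edem1 in MUT replicate 2 and Trib3 and Chac1 at 0 counts stand farthest from their group.

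Of the sensors, Atf6 (chromosome 1, 170704674 to 170867771) measured 239.4, 76.2 and 88.7 CPM in WT replicates 1, 2 and 3, and 143.6, 62.3 and 95.1 CPM in MUT. Its highest value in each genotype was in replicate 1, and the genotypes overlapped (estimate -0.43, SE 0.51, but 0.28 without WT replicate 1). Ern1, the IRE1 gene, measured 28.95, 19.2 and 31.5 CPM in WT and 35.9, 33.6 and 23.7 CPM in MUT (0.23, SE 0.63, but 0.03 without WT replicate 2). Eif2ak3, the PERK gene, measured 9.65, 24.5 and 24.4 CPM in WT and 12.0, 20.9 and 16.2 CPM in MUT (-0.25, SE 0.82, but -0.06 without WT replicate 3). The genotypes overlapped for each sensor gene, and the last 2 were among the members with the fewest counts per length.

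The ATF6/XBP1 arm held the most abundant transcripts of the set. Its 17 members had a median estimate of -0.04, with 6 above 0, and their mean log2 CPM was 7.85 ± 0.20 in WT and 7.76 ± 0.11 in MUT (SD, n = 3), a gap within the spread. Hspa5 (chromosome 2, 34771970 to 34777547), which encodes BiP, the main ER chaperone and the protein that holds the sensors inactive, measured 998.2, 1046 and 1571 CPM in WT and 997.1, 1461 and 1777 CPM in MUT. The 2 lowest values of Hspa5, one in each genotype, were nearly equal (estimate 0.23, SE 0.31, 95% interval -0.44 to 0.89, but 0.02 without MUT replicate 3). Hsp90b1, the ER form of HSP90, measured 1486, 1174 and 1979 CPM in WT and 1342, 1426 and 1895 CPM in MUT. Its estimate, 0.01 (SE 0.29, interval -0.62 to 0.63), was the closest to 0 of the 33. Hyou1, a nucleotide exchange factor for BiP, measured 311.6, 194.9 and 276.8 CPM in WT and 161.2, 342.1 and 206.3 CPM in MUT (-0.14, SE 0.37, but 0.07 without MUT replicate 1).

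The lectin chaperones of glycoproteins gave the same picture of overlap. Calr, encoding calreticulin, measured 1636, 637.6 and 860.7 CPM in WT and 1170, 719.2 and 901.7 CPM in MUT, with replicate 1 highest in both (estimate -0.17, SE 0.36, but 0.31 without WT replicate 1). Canx, encoding its membrane-bound partner calnexin, measured 268.8, 320.3 and 400.4 CPM in WT and 516.1, 330.4 and 449.7 CPM in MUT. The Canx estimate was 0.39 (SE 0.31, interval -0.29 to 1.07), and 0.24 without MUT replicate 1. Among the disulfide isomerases and oxidases, Pdia3, Pdia4, Pdia6 and Ero1lb had estimates between -0.01 and 0.17. Pdia3, which works with calnexin and calreticulin, measured 609 ± 191 and 627 ± 52.7 CPM in WT and MUT (here and below, mean ± SD of 3 libraries), and Ero1lb, an oxidase for the isomerases, 274 ± 32.2 and 272 ± 46.1 CPM. Pdia6 measured 46.0, 59.9 and 148.7 CPM in WT and 66.5, 66.3 and 119.9 CPM in MUT, highest in replicate 3 of each genotype.

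Creld2, an ER-resident protein induced by ER stress, had the smallest p of the 33 genes. It is on chromosome 15 (88819646 to 88826683) and measured 271.9, 112.2 and 131.7 CPM in WT and 70.4, 91.9 and 128.3 CPM in MUT. The highest MUT library lay above 1 WT library and close to the second, and WT replicate 1 stood far above all others. Its estimate was -0.83 (SE 0.44, unadjusted p 0.085, edgeR adjusted p 0.999875), -0.34 without WT replicate 1 and -1.09 without MUT replicate 3. Manf, a secreted ER stress factor, measured 50.2, 85.7 and 94.8 CPM in WT and 57.2, 65.0 and 57.6 CPM in MUT (-0.36, SE 0.46, but -0.18 without WT replicate 3). Dnajb11, a BiP cochaperone, measured 269 ± 89.5 and 213 ± 67.9 CPM (-0.34, SE 0.37, but -0.04 without WT replicate 1), and Sdf2l1, its partner in a chaperone complex, 60.4 ± 10.8 and 58.6 ± 12.3 CPM (-0.04, SE 0.47).

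Genes of ER-associated degradation (ERAD), which sends misfolded proteins to the proteasome, pointed both ways. Herpud1, a scaffold of the degradation complex, measured 151.2, 129.4 and 69.1 CPM in WT and 69.6, 69.8 and 83.6 CPM in MUT. Its estimate was -0.65 (SE 0.43), -0.42 without WT replicate 1 and -0.92 without WT replicate 3. WT replicates 1 and 2 lay above every MUT library and WT replicate 3 below every one. Sel1l, the adaptor of the ubiquitin ligase, measured 537.2, 378.7 and 272.6 CPM in WT and 410.8, 189.2 and 321.1 CPM in MUT (-0.37, SE 0.37, but -0.09 without WT replicate 1). Syvn1, the ligase itself (HRD1), measured 70.1, 102.8 and 99.8 CPM in WT and 135.2, 130.9 and 95.1 CPM in MUT (0.41, SE 0.39, but 0.25 without WT replicate 1). Syvn1 and Sel1l work in 1 complex, and their estimates had opposite signs with overlapping genotypes for each.

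The IRE1 arm had a median estimate of 0.21, with 4 of its 6 members above 0. Xbp1 (chromosome 11, 5520659 to 5525893) measured 255.3, 112.0 and 124.7 CPM in WT and 101.4, 169.5 and 100.3 CPM in MUT. The estimate was -0.41 (SE 0.43), but 0.06 without WT replicate 1. The counts join the spliced and unspliced forms of Xbp1. Dnajb9, an ERAD-linked BiP cochaperone, measured 108.0, 104.3 and 77.9 CPM in WT and 134.7, 74.9 and 36.5 CPM in MUT (-0.24, SE 0.50, but 0.11 without MUT replicate 3). Its 3 MUT values spanned those of WT on both sides. Dnajc3, a cochaperone that also restrains PERK, measured 147 ± 47.2 and 169 ± 47.2 CPM (0.20, SE 0.39, but 0.04 without WT replicate 2).

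The 2 largest estimates of this arm each leaned on 1 library or spread widely. Edem1, a mannosidase-like factor that directs glycoproteins to degradation, measured 83.3, 127.0 and 68.6 CPM in WT and 21.7, 332.2 and 72.4 CPM in MUT. MUT held both the lowest and the highest library of Edem1, 460 and 6935 counts, and the estimate of 0.61 (SE 0.74) was -0.99 without MUT replicate 2. MUT replicate 2 also held the highest sum of B and plasma cell markers (1679 CPM) and of thymocyte markers (741 CPM), and the part of these cells in the Edem1 value was not tested. Sec61b, a subunit of the channel through which proteins enter the ER, measured 10.9, 25.9 and 25.0 CPM in WT and 64.5, 36.6 and 17.2 CPM in MUT (0.94, SE 0.72, and 0.39 without MUT replicate 1). Its lowest MUT library lay below 2 WT libraries.

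In the PERK/ATF4 arm 8 of the 10 members had an estimate below 0, none passed the test, and the median was -0.41. Atf4 (chromosome 15, 80255184 to 80257541) measured 226.2, 357.1 and 214.2 CPM in WT and 224.6, 205.1 and 146.8 CPM in MUT. Its estimate was -0.47 (SE 0.35), -0.21 without WT replicate 2 and -0.60 without WT replicate 3. Atf3, a stress factor downstream of ATF4, measured 278.5, 185.2 and 221.3 CPM in WT and 164.7, 187.2 and 152.1 CPM in MUT (-0.44, SE 0.33, but -0.28 without WT replicate 1). Only 1 library pair overlapped for Atf3, MUT replicate 2 lying just above WT replicate 2. Ddit3, encoding the pro-death factor CHOP, measured 36.5, 14.4 and 13.0 CPM in WT and 23.6, 7.71 and 16.5 CPM in MUT (-0.42, SE 0.85, but 0.22 without WT replicate 1).

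The feedback genes of the arm pointed in different directions. Ppp1r15a (GADD34, chromosome 7, 45522916 to 45526268), which guides the phosphatase that reverses eIF2-alpha phosphorylation, measured 256.7, 342.2 and 293.9 CPM in WT and 397.5, 577.7 and 343.6 CPM in MUT. Each MUT library exceeded each WT library, although the lowest MUT and the highest WT values were almost equal. Its estimate was 0.56 (SE 0.32, interval -0.13 to 1.25, edgeR unadjusted p 0.1, adjusted p 0.999875), 0.31 without MUT replicate 2 and 0.71 without MUT replicate 3. Ppp1r15a and Atf3 are also induced by tissue dissociation. Sums of 19 immediate-early and dissociation genes, such as Fos and Egr1, were 13032, 10518 and 9149 CPM in WT and 11102, 12072 and 8136 CPM in MUT, and their part in the values of Ppp1r15a and Atf3 was not tested. Sesn2, a stress-induced inhibitor of mTORC1, measured 110.5, 91.2 and 82.0 CPM in WT and 34.4, 57.6 and 99.6 CPM in MUT. Its estimate was -0.57 (SE 0.48), -0.27 without MUT replicate 1 and -1.04 without MUT replicate 3.

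Trib3, Chac1 and Asns, which are ATF4 target genes, had the fewest counts of the 33. Trib3, a pseudokinase that restrains ATF4, had 50, 139 and 157 counts in WT and 66, 0 and 64 counts in MUT. Chac1, a glutathione-degrading enzyme, had 151, 190 and 193 counts in WT and 304, 0 and 183 counts in MUT. Both genes were thus absent from the counts of MUT replicate 2, where 3 counts, the limit that a count of 0 allows, correspond to 0.144 CPM, and both were counted in the other MUT libraries. Their estimates, -1.59 (SE 1.92, but -1.01 without MUT replicate 2 and -3.17 with limma-voom) for Trib3 and -0.32 (SE 1.61, but 0.26 without MUT replicate 2) for Chac1, had the widest intervals of the 33. Asns, asparagine synthetase, measured 5.86, 16.6 and 25.0 CPM in WT and 2.22, 11.6 and 21.9 CPM in MUT (-0.41, SE 1.06, but 0.09 without WT replicate 3). Ero1l, a CHOP-dependent oxidase, measured 71.8 ± 15.8 and 74.8 ± 14.4 CPM (0.06, SE 0.44). Averaged over the arm, log2 CPM came to 5.44 ± 0.19 for WT and 4.76 ± 0.65 for MUT, where replicate 2, with Trib3 and Chac1 at 0, was lowest at 4.02. Left without Trib3 and Chac1, a choice made after seeing their values, the arm had 2 of 8 members above 0 and the same median of -0.41. The average log2 CPM of these 8 was 6.12 ± 0.15 for WT and 5.84 ± 0.25 for MUT, a smaller gap, and MUT replicate 1 (5.57) was then the lowest library.

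**Figure D3:**
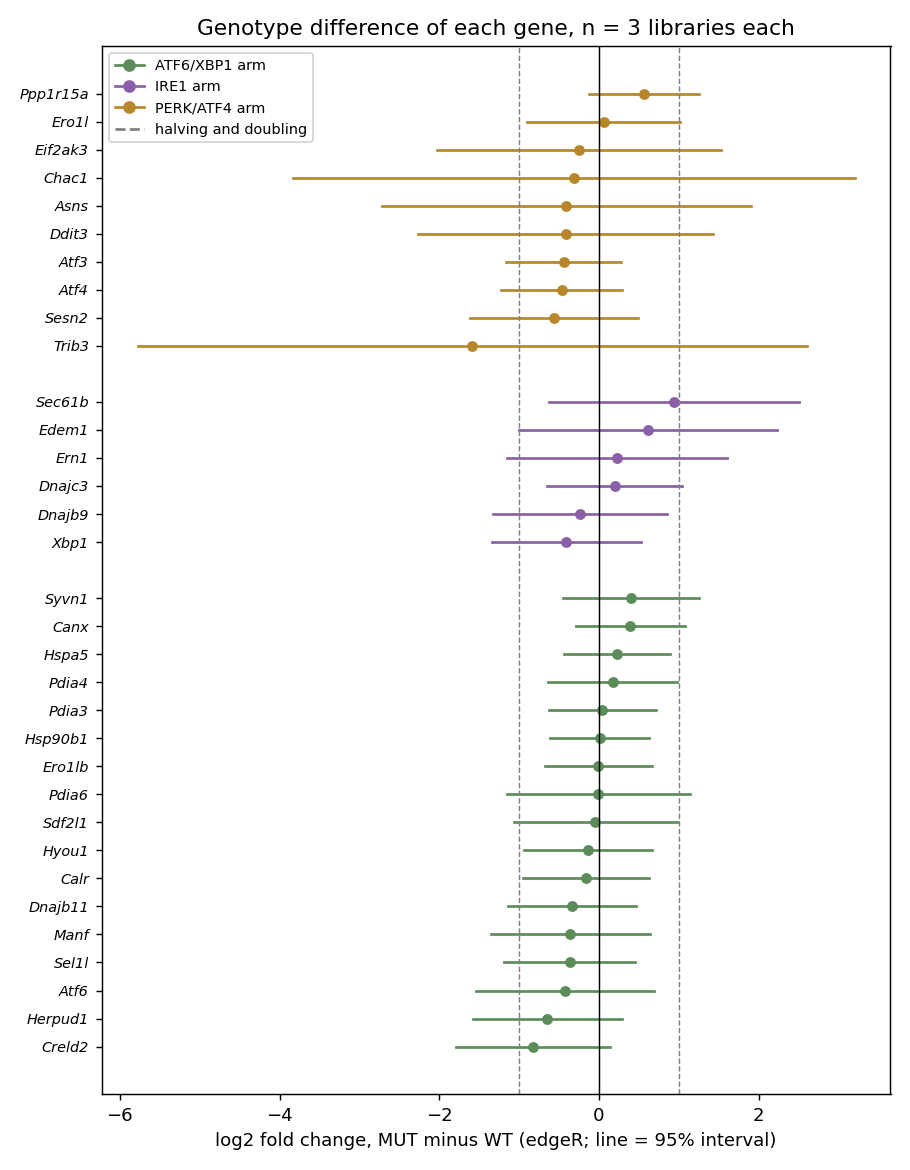
Log2 fold change (MUT minus WT) of each member from edgeR, with its 95% interval, ordered within each arm; dashed lines mark a 2-fold change in either direction. Every interval includes 0, and 7 intervals, all green (ATF6/XBP1), lie between the dashed lines.

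Set side by side, the arms had medians of -0.04 (ATF6/XBP1), 0.21 (IRE1) and -0.41 (PERK/ATF4), and the difference between arms was not tested. The IRE1 value was 0.03 with the replicate number as a block and 0.01 with limma-voom, and it ran from -0.01 (without MUT replicate 2) to 0.40 (without WT replicate 3) with 1 library left out. It also depended on which genes were placed there: with the ERAD genes Herpud1, Sel1l and Syvn1 and the cochaperone Dnajb11 counted in it, and the sensors left out, it was -0.24. Members whose promoter held ERSE or ERSE-II had a median of -0.00 with 5 of 10 above 0, and the 20 other members with a promoter in the table had -0.29 with 7 above 0. These 20 include the whole PERK/ATF4 arm, which held neither element, so the 2 medians are not independent of the arm medians. Outside the set, 26 genes had an ERSE in their promoter and 11 of these were tested. Derl3 among the 11 is also counted with the other ERAD genes further on. Alg12 lies beside the member Creld2 on the opposite strand, so the match in both promoters may be the same. Of these 11, 9 had an estimate above 0 and 2 below, where 49.4% of all genes were above 0, and 0 passed the test. Some of the 11 had few counts. In WT, Calr4 had 0, 0 and 23 counts (SE 2.33), Xlr3a 0, 16 and 5 (SE 2.13) and Alg12 1, 38 and 542 (SE 1.46). Esp15, with an estimate below 0, had 17, 38 and 0 counts in WT (SE 2.52). The sign of such estimates carries little weight.

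Libraries of 1 genotype differed widely, and for some members in the same way by replicate number. WT replicate 1 held the highest value of the 6 libraries for 11 members, 7 of them in the ATF6/XBP1 arm, and the lowest for 9. Replicate 3 was the highest library in both genotypes for 7 members: Hspa5, Hsp90b1, Pdia4, Pdia6, Sdf2l1, Dnajc3 and Asns. Replicate 1 was the highest in both for 5 (Atf6, Calr, Ddit3, Dnajb9 and Sel1l) and replicate 2 for 3 (Edem1, Eif2ak3 and Ppp1r15a). Over all genes tested these shares were 11.3%, 13% and 13.2% for replicates 3, 1 and 2. The member counts for replicates 1 and 2 are thus near the background, and that for replicate 3 was not tested. Same-numbered libraries also carry a common suffix in their source names, left unexplained there.

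The replicate 1 libraries also stood apart in a list of 12 cytosolic heat shock genes, whose chaperones serve proteins outside the ER. These summed to 9866, 4964 and 4660 CPM in WT and 8935, 4356 and 4403 CPM in MUT. Hspa1a, encoding inducible HSP70 and listed with the dissociation genes, measured 1579, 235.3 and 60.1 CPM in WT and 906.3, 211.3 and 55.5 CPM in MUT, highest in replicate 1 and lowest in replicate 3 of both genotypes. Its reads may be shared with the near-identical Hspa1b. Hspa5, its ER counterpart, had its lowest value of each genotype in the same replicate 1 libraries. Their part in the values of the members was not tested.

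**Figure D4:**
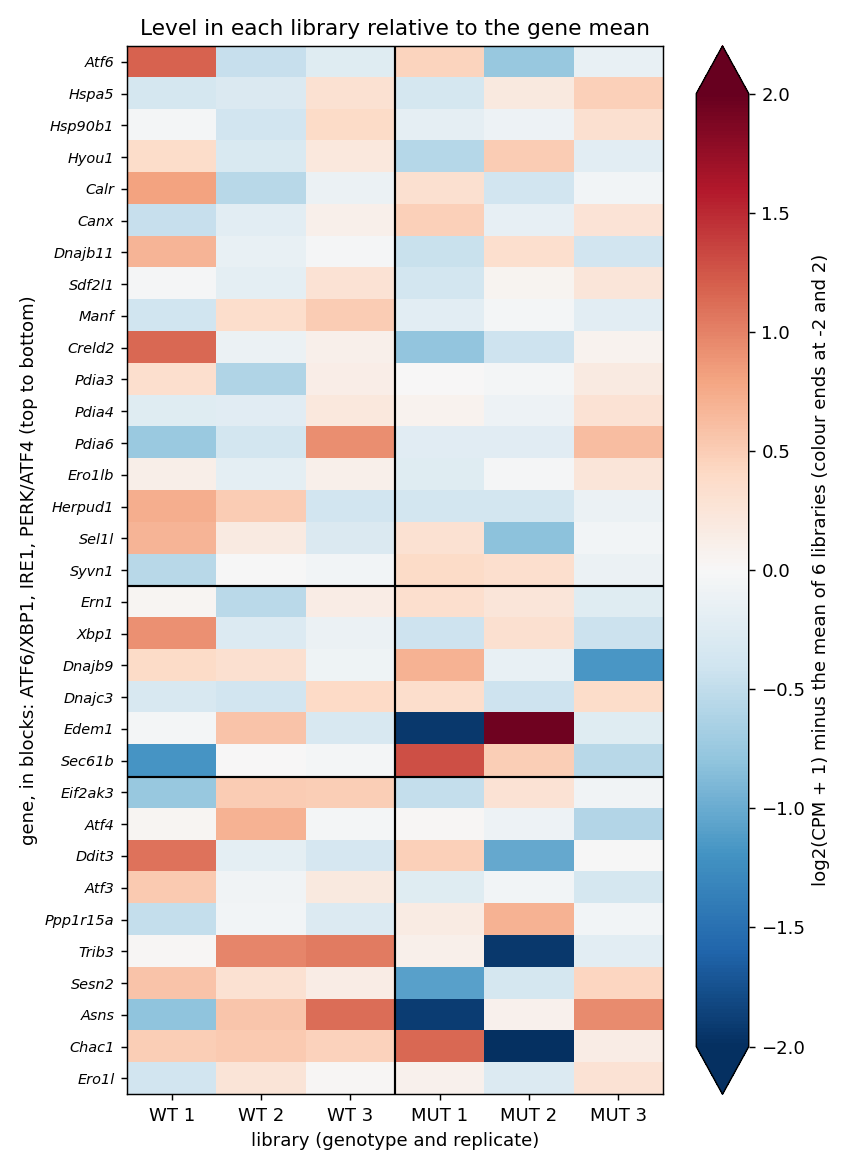
Log2(CPM + 1) of each member in each library minus the mean of that gene over the 6 libraries (red above, blue below, colour ends at -2 and 2), with the arms as 3 blocks from top to bottom and WT to the left of the vertical line. No block is of 1 colour on 1 side of the line; the darkest cells are Edem1 in MUT replicates 1 and 2, Asns in MUT replicate 1, and Trib3 and Chac1 in MUT replicate 2.

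Levels of different genes were compared as CPM per kb of merged exon. Hsp90b1 (384 ± 101 in WT and 385 ± 73.95 in MUT), Calr (363 ± 182 and 323 ± 78.7) and Hspa5 (285 ± 75.1 and 334 ± 92.7) led the order, and these 3 did not differ from each other beyond their spread. Pdia3 came next (194 ± 60.95 and 200 ± 16.8), followed by Ppp1r15a, Creld2, Atf4 and Atf3, whose ranges overlapped. The PERK/ATF4 arm therefore supplied both abundant transcripts and the rarest ones, since Trib3 (2.56 ± 1.05 and 0.85 ± 0.76), Eif2ak3 (3.24 ± 1.42 and 2.72 ± 0.74) and Chac1 were at the bottom with Ern1 (3.25 ± 0.79 and 3.81 ± 0.79). Hsp90b1 and Calr were among the first 3 of the 33 in every library.

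**Figure D5:**
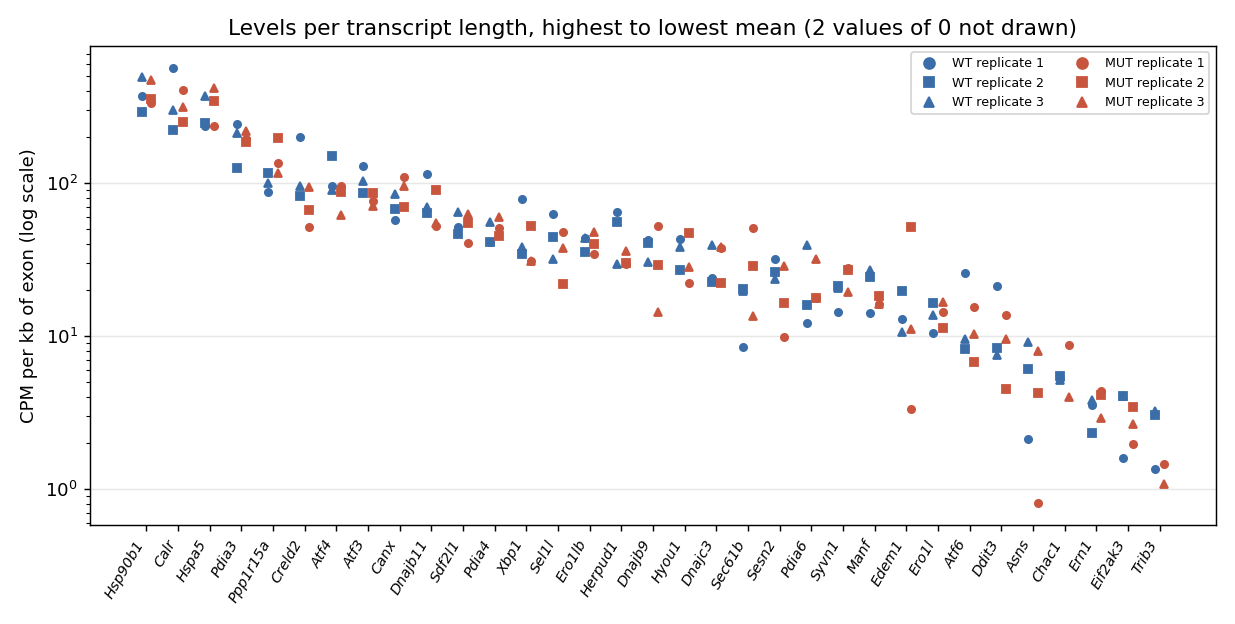
CPM per kb of exon on a log axis for the 33 members in order of their mean, with blue for WT, red for MUT and marker shapes for the replicate number; the 0 counts of Trib3 and Chac1 in MUT replicate 2 are not drawn. Hsp90b1, Calr and Hspa5 are at the left, above 200 in every library, and neighbours in the order overlap.

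Other genes of the pathway, 120 in 6 lists, held 119 tested genes, of which 54 had an estimate above 0, 65 below, and 0 passed edgeR's test in either direction; their median was -0.06. Among 11 genes for the eIF2-alpha kinases and the eIF2 and eIF2B factors, 3 were above 0. Eif2ak2, encoding the kinase PKR, which senses double-stranded RNA and is itself an interferon-induced gene, measured 30.6, 36.2 and 42.5 CPM in WT and 88.3, 94.6 and 63.6 CPM in MUT. Its estimate was 1.17 (SE 0.47), and 1.05 to 1.32 with 1 library left out. Eif2s2, the beta subunit of eIF2, measured 392.4, 145.9 and 151.9 CPM in WT and 80.8, 103.9 and 80.6 CPM in MUT (-1.38, SE 0.44, but -0.76 without WT replicate 1). Neither gene's genotypes overlapped, and neither passed edgeR's test (adjusted p 0.999875 for both, unadjusted p 0.029 and 0.0092). They were named for having the smallest p on their list. Over the 119 genes, 6 had no overlap with MUT above and 5 with MUT below, and 4 had an unadjusted p under 0.05, where all genes gave 5.39%, 3.96% and 3.48%, so these counts are near the background.

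Of 19 other ERAD genes, 10 were above 0, with Faf2, which helps draw substrates from the membrane, at 51.2 ± 14.3 and 106 ± 22.9 CPM in WT and MUT. The Faf2 estimate was 1.05 (SE 0.45), and 0.84 to 1.21 with 1 library left out. Edem2, the mannosidase that starts glycoprotein degradation, measured 11.03, 11.6 and 9.73 CPM in WT and 20.8, 58.0 and 20.3 CPM in MUT (1.61, SE 0.78, and 0.92 without MUT replicate 2). Of 18 translocon, signal peptidase and glycosylation genes, 11 were above 0. The channel gene Sec61a1 measured 181 ± 5.53 and 251 ± 39.4 CPM (0.47, SE 0.31, and 0.35 to 0.57 with 1 library left out), with Stt3a at 0.77 (SE 0.61, but 0.28 without WT replicate 1). Faf2, Edem2 and Sec61a1 had no overlap, with MUT above, and none passed the test. Of the 19 ERAD genes, 2 had no overlap with MUT above and 2 with MUT below, where the shares of all genes were 5.39% and 3.96%.

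Of 20 other folding genes, 7 were above 0. Pdia5 had an estimate of 3.83 (SE 2.17), which was 1.33 without MUT replicate 2, and Cnpy3, a chaperone of Toll-like receptors, measured 60.5 ± 8.93 and 30.4 ± 15.5 CPM (-0.99, SE 0.57, and -1.50 without MUT replicate 3). The genotypes of Cnpy3 did not overlap, with MUT below, as for 3.96% of all genes. Of 16 tested genes among other ER stress transducers and death effectors, 7 were above 0, with Creb3l1, a factor cleaved like ATF6, which measured 11.2, 6.07 and 9.33 CPM in WT and 55.5, 9.96 and 33.1 CPM in MUT (1.89, SE 0.85), and Bcl2l11, encoding the pro-death protein BIM, at -1.12 (SE 0.73, but -0.49 without WT replicate 2). Of 35 other ATF4 target genes, 16 were above 0, with a median of -0.08. Gdf15, a stress cytokine, measured 27.1 ± 31.1 and 5.61 ± 3.37 CPM in WT and MUT (-2.27, SE 1.13, but -0.76 without WT replicate 1), and Cebpg, a partner of ATF4, had an estimate of -0.78 (SE 0.47, but -0.44 without MUT replicate 2). None of these genes passed the test.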

How the data were processed

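The authors deposited raw counts per Ensembl gene ID, 1 column per library, not normalized. The tools listed, per the submitters' processing notes, are STAR (2.4.2a) and DESeq2 (1.26.0), with GRCm38 as the build and no roles stated. Per the labels' protocols, cDNA was made by a Nugen Ovation method and libraries by Nextera XT; no molecular identifiers are described, so floors cover counting error only. For the counter, its annotation and whether it used strand, the entry is: not given in the sources used here. Hence overlapping, antisense and near-identical genes carry uncertain counts. Of 43432 IDs, 42462 matched a symbol, coordinates and exon length in GENCODE M21 (GRCm38).

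Counts were fitted with edgeR 4.0.16 (R 4.3.3): TMM, filterByExpr (minimum count 10), robust quasi-likelihood F-tests for genotype alone, and Benjamini-Hochberg adjustment at 0.05 over 17172 genes. Intervals are the estimate plus or minus the t quantile times the SE. A floor is 3 counts per library. Log2 CPM used a prior count of 2. limma 3.58.1 and DESeq2 1.42.0 were alternatives. No 2 libraries agreed within sampling noise (lowest chi-square per degree of freedom 84.4). The fit was tested on simulated data.

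Genes named were all members, Copa, the 2 genes with the smallest p in each other pathway list, and markers. Also named were some tested genes with an ERSE outside the set, picked for low counts or for overlap with members or other lists. The members, arms and lists were chosen with earlier results of these data known. Promoter sequences are from RefSeq (GRCm38.p6); Atf6, Hyou1 and Manf were not matched. Retrieval signals in the proteins were not analysed here.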

Additional observations from a re-analysis of the deposited data

How the results depend on the processing

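The count of 0 members called held under all alternatives run, and the count of 0 genes called became 73 without a filter on low counts, 116 with DESeq2 and 1 with the replicate number as a block (replicate block), which called 0 members. The labels do not say that the number marks a shared batch. Deviations of same-numbered libraries from their genotype mean correlated at 0.1002, 0.059 and 0.127, with 6 of 6 libraries correlating best with their own number. By level, only 2 of 6 libraries correlated best with their own number, by Spearman and by Pearson correlation alike. Over all genes the median estimate was 0.16 without the filter and 0.15 with DESeq2. The ATF6/XBP1 median ran from -0.23 (without WT replicate 2) to 0.070 with 1 library left out, and the IRE1 median was -0.24 with the other assignment of genes. Of 33 members, 18 kept their sign throughout (10 below and 8 above 0).

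With all libraries, the sign changed for Hsp90b1 (-0.010 with DESeq2 size factors and -0.010 with DESeq2), Sdf2l1 (0.018), Pdia6 (0.015) and Ero1lb (0.066) with upper-quartile factors, Pdia6 (0.12) and Edem1 (-0.13) with the replicate block, and Pdia6 (0.11) and Edem1 (-0.17) with limma-voom. With 1 library left out, estimates ran from -0.78 to 0.28 for Atf6, -0.17 to 0.22 for Hsp90b1, -0.52 to 0.070 for Hyou1, -0.43 to 0.31 for Calr, -0.19 to 0.11 for Sdf2l1, -0.20 to 0.23 for Pdia3, -0.36 to 0.67 for Pdia6, -0.15 to 0.10 for Ero1lb, -0.71 to 0.060 for Xbp1, -0.80 to 0.11 for Dnajb9, -0.99 to 1.12 for Edem1, -0.82 to 0.22 for Ddit3, -1.20 to 0.086 for Asns, -1.40 to 0.26 for Chac1, -0.10 to 0.21 for Ero1l, -0.080 to 1.44 for Gadd45b and -1.35 to 0.29 for Hsf1. The cause was not tested.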
